A study of Mus musculus and Mus musculus musculus x Mus musculus castaneus with 52 samples.

Results

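Primitive streak and mesendoderm genes were followed in mouse pluripotent stem cells by RNA sequencing. The set held 6 genes, chosen by name: the signalling ligands Wnt3 and Wnt8a, the T-box transcription factors T (Brachyury) and Eomes, and the homeobox transcription factors Mixl1 and Lhx1. All 6 were among the 16687 gene symbols of the deposited table, which has 24 columns, each a library. Of the 32 RNA samples in the labels, 8 are technical repeats without a column of their own, and whether their reads were added to the other library is not stated. The 20 chromatin accessibility samples were not analysed here.

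The induced pluripotent stem cells (iPSCs, somatic cells reprogrammed to pluripotency) comprised 3 male lines (LV4, LV8 and LV16) and 3 female lines (LV20, LV21 and LV22), each sampled at passage 7 (P7) and passage 13 (P13), undifferentiated. The study's design text gives the early female lines as XX, the late ones as XO (a single X chromosome) and the male lines as XY. Wild-type embryonic stem cells (ESCs) sampled undifferentiated at P5 comprised 2 lines labelled XX, CM1 and CM2, and a further 2 labelled XY, CM3 and CM7, all from crosses of musculus with castaneus mice. In the withdrawal experiment, ESCs grown in serum without feeder cells were sampled in LIF (leukemia inhibitory factor, a cytokine that sustains mouse ESCs in culture) at 0 h and after 24 h without it. It used the wild-type XY line V6.5, the wild-type XX line F121 and 2 clones of XX ESCs labelled Dusp9+/-, heterozygous mutants of the X-linked gene for a phosphatase that acts on ERK kinases. F121 and the clones are of the same cross. Each line, passage and time is 1 culture, so V6.5 and F121 have 1 library at each time, and nothing in the labels gives repeat cultures of a line.

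The primitive streak is the region of the embryo where epiblast cells leave the epithelium at gastrulation to form mesoderm and definitive endoderm. Wnt3, made in the posterior epiblast and overlying endoderm, and Nodal are needed for a streak to form, and T is a direct target of Wnt signalling through beta-catenin and TCF/LEF factors. Eomes and Mixl1 are induced by Nodal and Activin signalling and act in definitive endoderm and mesoderm, Lhx1 acts in anterior mesendoderm and head formation, and Wnt8a is a ligand of the early posterior embryo. In serum and LIF, cultures of mouse pluripotent cells are heterogeneous, and T marks a minority of cells in them.

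In the RefSeq annotation of GRCm38.p6, T lies at chr17:8434423-8442496, Eomes at chr9:118478186-118486132, Mixl1 at chr1:180693043-180697034, Lhx1 at chr11:84517975-84525534 and Wnt3 at chr11:103774175-103818021. The span of Wnt3 overlaps that of Wnt9b, that of T overlaps LOC115486424 and that of Eomes overlaps the noncoding gene Gm33408. None of these 3 overlapping genes has a row in the table. The library kit marks strand, but whether reads were counted by strand is not stated, so reads from shared stretches cannot be assigned to either gene.

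The 250 bases before the annotated start of T, Lhx1 and Wnt3 are printed because, among the members, Wnt3 and Lhx1 had the highest correlations with T over the iPSC libraries, as described below. They are given 5′ to 3′ on the strand of the gene, in RefSeq's GRCm38.p6 sequence, and capitals mark the match to a searched motif.
T (chr17:8434173-8434422, + strand): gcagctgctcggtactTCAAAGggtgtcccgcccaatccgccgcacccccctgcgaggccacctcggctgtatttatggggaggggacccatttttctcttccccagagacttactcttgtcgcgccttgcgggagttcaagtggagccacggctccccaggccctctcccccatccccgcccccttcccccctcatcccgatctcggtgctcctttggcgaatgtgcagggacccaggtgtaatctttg
Lhx1 (chr11:84525535-84525784, - strand): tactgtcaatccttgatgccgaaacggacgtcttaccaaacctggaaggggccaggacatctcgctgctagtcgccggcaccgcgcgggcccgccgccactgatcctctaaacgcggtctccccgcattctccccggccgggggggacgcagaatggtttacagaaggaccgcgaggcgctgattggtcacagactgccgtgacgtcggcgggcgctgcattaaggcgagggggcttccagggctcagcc
Wnt3 (chr11:103773925-103774174, + strand): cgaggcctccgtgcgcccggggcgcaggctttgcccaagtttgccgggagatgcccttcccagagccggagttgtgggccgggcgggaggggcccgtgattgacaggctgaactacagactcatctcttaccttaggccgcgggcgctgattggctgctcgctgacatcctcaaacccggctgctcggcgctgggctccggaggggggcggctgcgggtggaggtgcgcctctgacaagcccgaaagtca

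A promoter was matched for 4 of the 6 genes, T, Eomes, Lhx1 and Wnt3. Searched on both strands were CTTTGA (the core of the TCF/LEF motif), GGTGTGA (a T-box site) and AATNCACA (FOXH1, the partner of Smad proteins in Nodal signalling). Only the TCF/LEF core matched, once, in T, 234 bases before the start and on the opposite strand. Over all 32851 listed promoters cut to 250 bases, 13.8% held the TCF/LEF core, 3.33% the T-box site and 3.18% the FOXH1 motif. The windows of T, Lhx1 and Wnt3 had a GC content of 62.8%, 64.8% and 68%, that of Eomes had 46.4%, and the median over all promoters was 52.4%.

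Levels are log2 CPM, that is log2 of the read count scaled to library size with a small offset, so that a gene with 0 reads stands at -2.45 (0.183 CPM). Libraries held 8309171 to 14245900 reads. T ranged from 2 to 1733 reads per library and had no library at 0. Eomes was counted well in every library, with 45 to 716 reads. Wnt3 ranged from 3 to 212 reads and Wnt8a from 2 to 167. Lhx1 was near the floor in many libraries, with 0 reads in 3 and 1 to 3 reads in 6 more. Mixl1 had few reads in most libraries, with 0 reads in 2, 1 to 3 reads in 1 and a median of 8.5 reads.

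**Figure D1:**
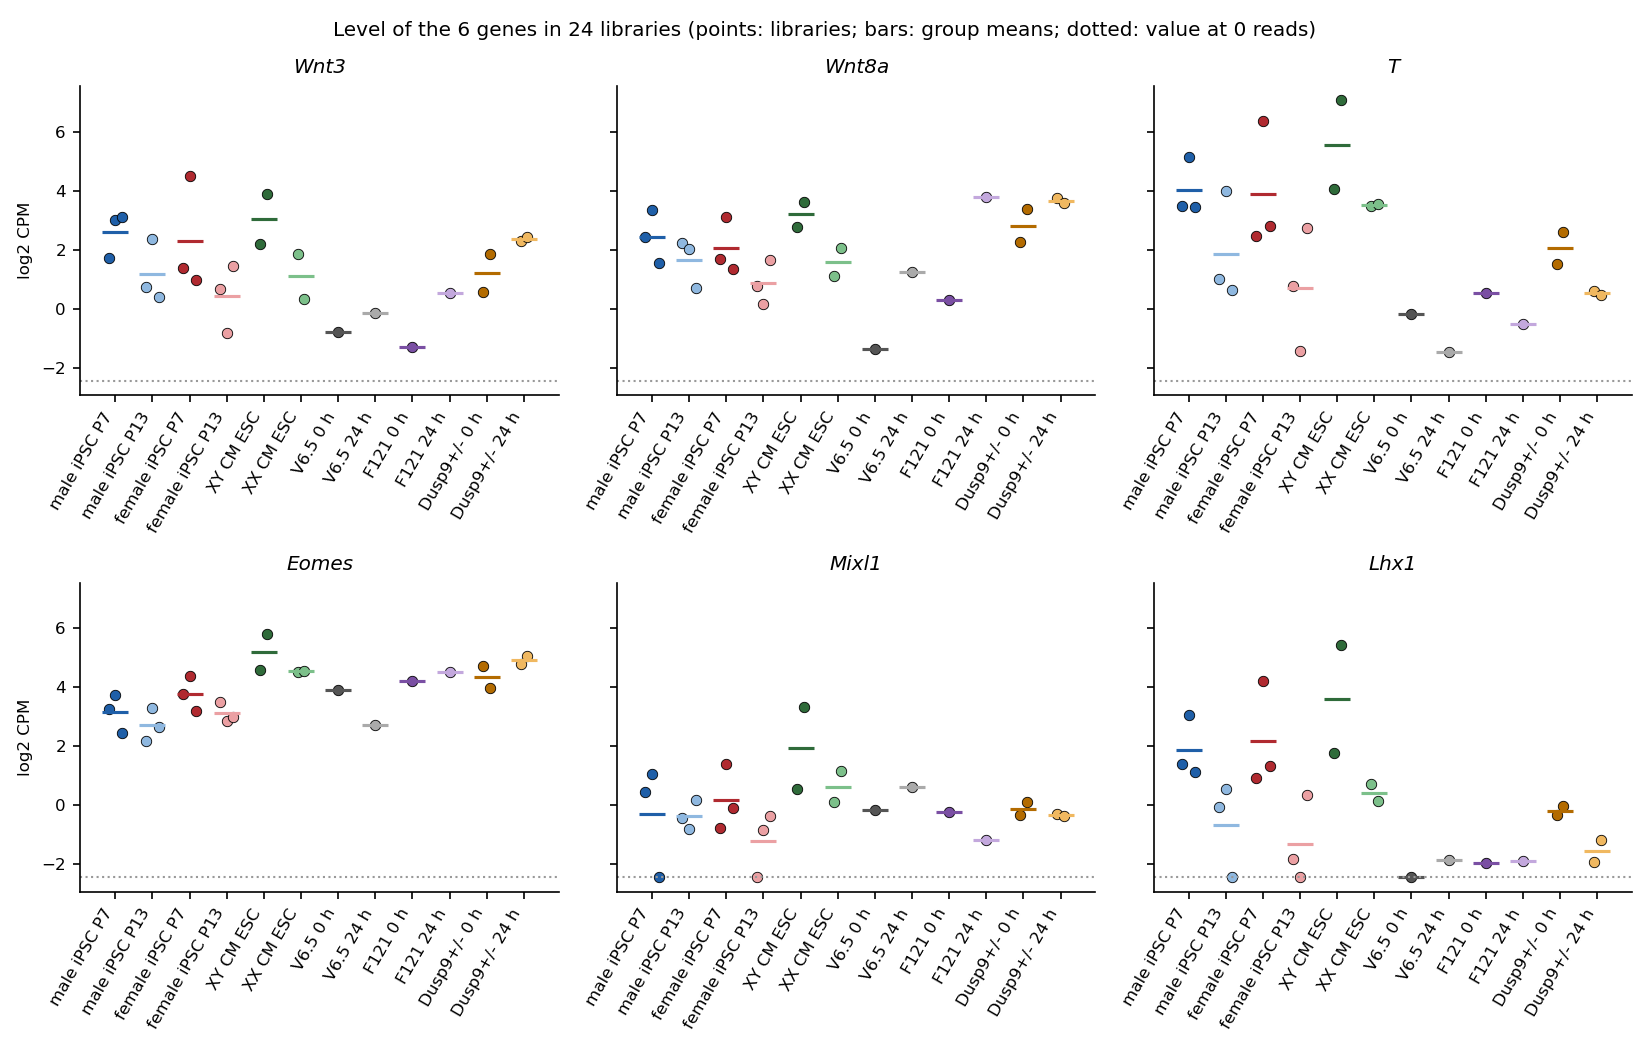
Level of each gene (y axis, log2 CPM) in every library, by group (x axis), with points for libraries, bars for group means and a dotted line at the value of 0 reads. T and Lhx1 span most of the axis, Wnt3 and Mixl1 span 5.80 and 5.79 log2 units, and Eomes stays between 2.17 and 5.80. Mixl1 has a median of -0.20.

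These genes were among the more variable ones of the table. Among the 14242 genes whose mean reached 1 CPM in the 24 libraries, the SD of T over libraries (2.27 on the log2 scale) lay at the 99.5th percentile and that of Lhx1 (2.12) at the 99.3rd. Wnt3 (1.47), Wnt8a (1.32) and Mixl1 (1.19) lay between the 94.7th and the 97.3rd, and Eomes (0.93) at the 88.6th. A low count adds counting noise to an SD, which touches Mixl1 and Lhx1 most. Mixl1, at a mean of 1.23 CPM, reached 1 CPM through CM7, which held 9.94 CPM and 128 of its 339 reads.

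Libraries of the same group also differed, for T by up to 4.16 log2 units, in female P13 iPSCs. T was highest in the XY CM ESCs, at a mean of 5.56 ± 2.14 log2 CPM (SD, n = 2). It was lower in P7 iPSCs, at 4.02 ± 0.97 in male (n = 3) and 3.88 ± 2.15 in female lines (n = 3), and in XX CM ESCs at 3.51 ± 0.05 (n = 2). The clones labelled Dusp9+/- at 0 h (2.05 ± 0.77, n = 2), male P13 iPSCs (1.87 ± 1.84, n = 3) and female P13 iPSCs (0.69 ± 2.08, n = 3) came next. At the low end stood F121 at 0 h (0.54), the clones at 24 h (0.54 ± 0.10, n = 2), V6.5 at 0 h (-0.18), F121 at 24 h (-0.53) and V6.5 at 24 h (-1.45). Of the 6 neighbouring pairs in this order in which both groups had replicates, 1 differed by more than the larger SD of the pair, XX CM ESCs and the clones at 0 h. Groups placed side by side by their means are close by construction, so this count does not compare groups further apart.

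Neighbouring groups were likewise close for most of the other genes. Among neighbouring replicated groups, 1 of 4 pairs for Eomes and 2 of 7 for Lhx1 differed by more than the larger SD, and none of 6 for Wnt3, 6 for Wnt8a and 4 for Mixl1. The highest group mean was that of XY CM ESCs for Eomes (5.20 ± 0.86), Lhx1 (3.59 ± 2.58), Mixl1 (1.95 ± 1.96) and Wnt3 (3.04 ± 1.22). For Wnt8a it was F121 at 24 h (3.78), followed by the clones at 24 h (3.66 ± 0.12).

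A pair of libraries carried the top of most of these ranges. The XY ESC line CM7 had the highest value of 24 for T (7.07), Eomes (5.80), Mixl1 (3.34) and Lhx1 (5.42). The female iPSC line LV21 at P7 had the highest Wnt3 (4.50), the second highest T (6.36) and Lhx1 (4.22), and the second highest Mixl1 (1.39). For 4 of the 6 genes these were the top pair, against 0.927% of all 14242 genes. The pair was picked by the values of these same 6 genes, so their count follows from that choice. CM7 was also the highest library for 8 of the 18 other streak and mesendoderm factors whose mean reached 1 CPM, against 4.23% of all genes, and for 4 of those 18 (Cyp26a1, Fgf8, Nkx1-2 and Rspo3) CM7 and LV21 at P7 were the top pair. The summed level of the 23 such factors in the table was highest in CM7 (311 CPM), and LV21 at P7 was 10th (130 CPM). The mean of 1 CPM is taken over 24 libraries that include CM7 and LV21 at P7. A gene can therefore enter the 18 factors, or the 14242 genes, through its level in these libraries. These shares describe the libraries and were not tested.

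Other markers also stood out in them. The summed level of trophoblast markers (10 genes, Eomes among them) was the highest of 24 in CM7, at 674 CPM, and the 5th in LV21 at P7, at 396 CPM, with none of the 10 at 0 in either. LV21 at P7 had the highest sum of 7 neural markers, at 384.5 CPM. Most of that sum was Nes, at 7.97 log2 CPM there, which is also listed as a formative and primed epiblast marker. Pluripotent cell markers stood at ranks 14 and 17 of 24 in CM7 and LV21 at P7 (4006 and 3795 CPM). The part of other cell types in the levels of the streak genes was not tested, and in bulk RNA more cells expressing a gene and more RNA per cell cannot be told apart.

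LV21 at P7 also went against its label on the X chromosome. The median X-linked level minus the median autosomal one was -0.27 there, against 0.36 in LV20 and 0.46 in LV22 at P7 and -0.75 to -0.59 in the male P7 lines. LV22 at P13 (-0.26) likewise stood above LV20 (-0.66) and LV21 (-0.75) at P13. For some iPSC results the value without these libraries is given beside it, and the closing section has the ranges of those that changed sign. Pou5f1, which encodes a core pluripotency factor, was between 8.57 and 9.54 log2 CPM in all 24 libraries.

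T and Lhx1 followed each other closely. Over the 24 libraries their Pearson correlation was 0.945, and it was 0.938 over the 12 iPSC and 0.947 over the 12 ESC libraries. Without CM7 and LV21 at P7 it was 0.913 (22 libraries), and the Spearman correlation over all 24 was 0.899. Wnt3 correlated with T at 0.799 over all libraries, at 0.95 over iPSC and 0.663 over ESC libraries. In the withdrawn clones Wnt3 stood at 2.31 and 2.44 while T stood at 0.61 and 0.47, which sets those libraries apart from the rest in the plot of T against Wnt3. These correlations rest on libraries that share lines, and no p is attached to them.

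**Figure D2:**
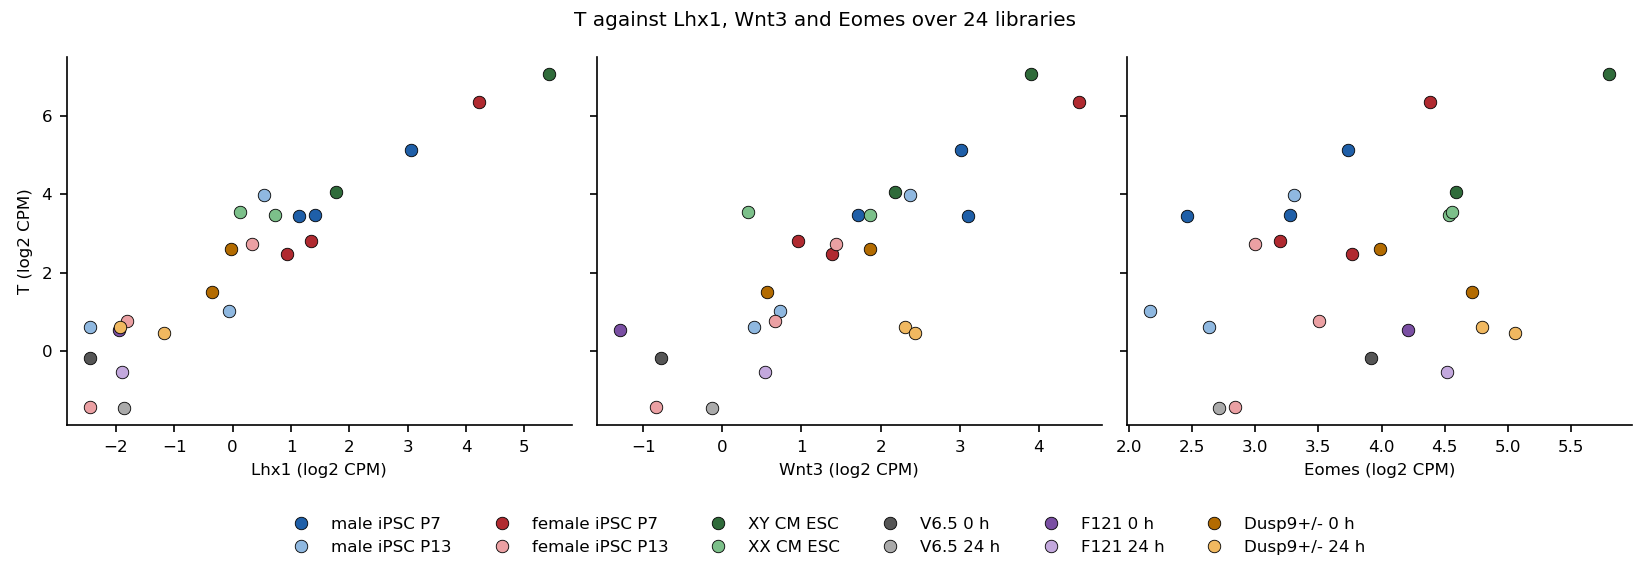
T (y axis, log2 CPM) against Lhx1, Wnt3 and Eomes (x axes, log2 CPM), with 1 point per library coloured by group. T and Lhx1 rise together over the whole range, and the libraries after 24 h without LIF lie low in T for their Wnt3.

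Wnt8a paired with T in iPSCs (0.867) and not in ESCs (0.297). Eomes was looser, at 0.327 with T over all libraries, 0.614 over iPSC and 0.661 over ESC libraries, and without CM7 and LV21 at P7 it fell to 0.0823. Mixl1 correlated with T at 0.540 and with Lhx1 at 0.591, and without those libraries at 0.245 and 0.260, so its relation to both rests on them. With 339 reads in all over 24 libraries, counting noise limits any correlation Mixl1 can show.

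The genes outside the set with the pattern most like each member were taken by Pearson's r over the 24 libraries among the 14242 genes. For T they were Piezo2 (0.917), a mechanically gated ion channel, Fgf8 (0.884), a ligand of the streak and the mesoderm leaving it, and Cer1 (0.871), a secreted inhibitor of Nodal, BMP and Wnt ligands. Lhx1 was most like Fgf8 (0.879), the endoderm factor Foxa2 (0.863) and Ltb (0.861). For Wnt3 they were Fndc3c1 (0.894), Nes (0.882) and Igfbp3 (0.878), and for Wnt8a Mmp25 (0.907), the kinase gene Pim2 (0.867) and Erfe (0.857). Eomes went with Rnf217 (0.897), Ube2e2 (0.870) and the pseudogene Tcea1-ps1 (0.864). The highest values for Mixl1 were lower, at 0.726 for Pkdcc, 0.719 for Fmnl2 and 0.714 for Lats1. CM7 was the highest library for every gene named here beside T, Mixl1 and Lhx1.

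The iPSC lines were sampled at P7 and P13, which asks how their expression changed with passage. T was lower at P13 in all 6 lines and Lhx1 in all 6. Wnt3 and Wnt8a were lower in 5 of 6, the exception in both cases being LV22, where Wnt3 had 21 reads at each passage. Some of these falls were within counting error, as given below. Lhx1 passed the test in the female lines, a call that held in 4 of 12 alternatives. With both sexes averaged, a contrast added after the values were seen, Lhx1 and T passed. Lhx1 was tested at all only through its P7 levels, as described below.

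Wnt3 in the male lines went from 3.02 to 2.37 log2 CPM in LV4, from 3.10 to 0.41 in LV8 and from 1.72 to 0.74 in LV16. In the female lines it went from 1.39 to 0.67 in LV20, from 4.50 to -0.84 in LV21 and from 0.96 to 1.43 in LV22. The values at P7 and P13 overlapped in both sexes, and LV21 moved most, from 212 reads to 4. Wnt8a went from 3.35 to 2.04 in LV4, from 1.54 to 0.71 in LV8, from 2.43 to 2.23 in LV16, from 1.69 to 0.76 in LV20, from 3.12 to 0.17 in LV21 and from 1.34 to 1.67 in LV22. Its passages overlapped as well.

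T fell from 5.14 to 3.98 in LV4, from 3.45 to 0.62 in LV8 and from 3.47 to 1.01 in LV16. In the female lines T was 2.48 and 0.76 in LV20, 6.36 and -1.43 in LV21, and 2.82 and 2.73 in LV22. The largest step was that of LV21, from 770 reads at P7 to 2 at P13, a ratio of 433 with a 95% counting interval of 119 to 3580 (exact conditional binomial, counting error only). LV22 by contrast differed within counting error (82 and 54 reads, a ratio of 1.06 with an interval of 0.745 to 1.53), and LV4 at P13 was above LV8 and LV16 at P7, so the passages overlapped.

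Eomes went from 3.73 to 3.31 in LV4, from 2.46 to 2.63 in LV8, from 3.28 to 2.17 in LV16, from 3.77 to 3.51 in LV20, from 4.38 to 2.84 in LV21 and from 3.19 to 2.99 in LV22. It was lower at P13 in 5 of 6 lines, with overlapping passages. The fall was beyond counting error in LV21 (195 to 74 reads, a ratio of 2.96 with an interval of 2.26 to 3.93), LV16 (2.21, interval 1.59 to 3.08) and LV4 (1.35, interval 1.02 to 1.78).

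Lhx1 stood at 0 to 1.27 CPM above the floor at P13, so it reached the mean of 1 CPM needed for testing through its P7 levels. Reads per library at P7 and P13 were 72 and 13 in LV4, 17 and 0 in LV8, and 27 and 11 in LV16. In the female lines they were 17 and 1 in LV20, 174 and 0 in LV21, and 28 and 9 in LV22. Every P13 library lay below every P7 library of the same sex, on the log2 scale at most 0.54 against at least 1.13 in male and 0.33 against 0.93 in female lines. Against a floor of 3 counts per library, Lhx1 was at least 65.2-fold lower at P13 in LV21 and at least 6.45-fold lower in LV8. Groups that do not overlap in this direction made up 18.3% of all genes tested in male and 13.1% in female lines.

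Mixl1 had a mean below 1 CPM over the 12 iPSC libraries and was not tested there. It had 17 reads at P7 and 4 at P13 in LV4, 0 and 9 in LV8, 13 and 8 in LV16, 4 and 0 in LV20, 23 and 4 in LV21, and 9 and 5 in LV22. LV8 went the other way from the other 5 lines.

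**Figure D3:**
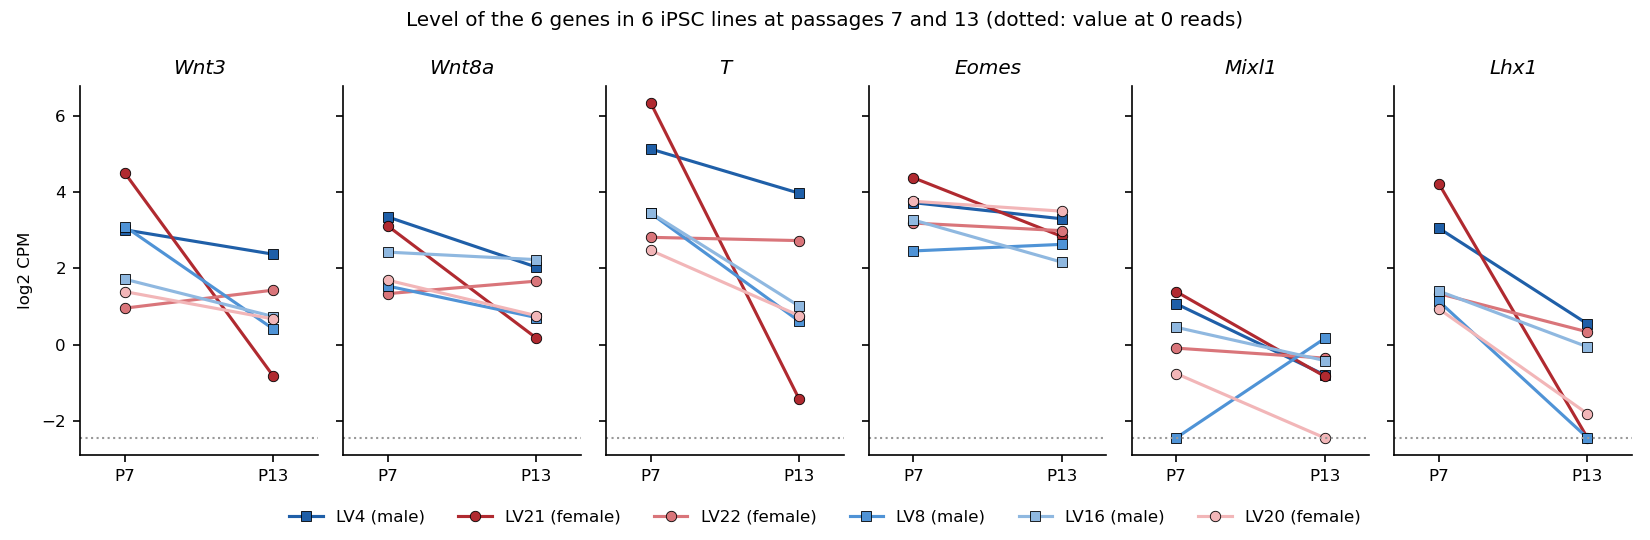
Level (y axis, log2 CPM) of each gene at P7 and P13 (x axis) in the 6 iPSC lines, with squares for male and circles for female lines joined within a line, and a dotted line at the value of 0 reads. T and Lhx1 slope down in every line, LV21 most and LV22 least for T.

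Limma, fitted to 13978 genes over the 12 libraries with p-values adjusted over all of them by the Benjamini-Hochberg procedure, called 1 of the 5 members tested in female lines (P13 against P7), where it called 9% of all genes (4.32% higher, 4.68% lower). This was Lhx1, with a log2 difference of -3.48 ± 0.98 (SE, adjusted p = 0.0410), and T, at -3.20 ± 1.13, missed the threshold (adjusted p = 0.0890). Without LV21 at P7 the difference of T was -1.96 (limma, adjusted p = 0.217), and it was -2.98 (adjusted p = 0.0571) with LV22 at P13 left out as well. The call of Lhx1 was lost under a pseudocount of 1 CPM, without a filter on low values and with voom (adjusted p 0.0536, 0.0732 and 0.104). It was also lost without LV20, LV21 or LV22 at P7 and without LV20 or LV21 at P13 (limma, adjusted p from 0.0699 to 0.125), and it held at 0.0338 when LV21 at P7 was left out together with LV22 at P13. Without LV21 at P7 alone the difference of Lhx1 was -2.45.

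In male lines limma called 0 of 5 members, against 13% of all genes (7.23% higher, 5.82% lower), with 1 member, Lhx1 at -2.52 ± 0.98, at an unadjusted p under 0.05 (adjusted p = 0.101) and 0 called by voom. T stood at -2.15 ± 1.13 in the male lines (adjusted p = 0.222). The difference between the sexes in the passage change was tested as an interaction, which called 0 members and 0 genes (0%), with 1242 genes and no member at an unadjusted p under 0.05 and 0 members called by voom. All 5 interaction terms were below 0, from -1.05 ± 1.60 for T to -0.21 ± 0.54 for Eomes. Without LV21 at P7 all 5 were above 0, at 0.19 for T, 0.088 for Eomes, 0.072 for Lhx1, 0.69 for Wnt3 and 0.13 for Wnt8a.

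Averaged over the sexes, a contrast added after the values were seen, the passage difference was called for 2 of 5 members, against 25.8% of all genes (13.1% higher, 12.7% lower). Lhx1 was lower by a log2 difference of -3.00 ± 0.69 (limma, adjusted p = 0.00675), in 6 of 6 lines, and its adjusted p stayed between 0.00358 and 0.0240 over 18 alternatives. T was lower by -2.67 ± 0.80 (adjusted p = 0.0244), in 6 of 6 lines, with adjusted p from 0.00869 to 0.0649 over the alternatives. Its call was lost without LV4 at P7, LV8 at P13 or LV21 at P13, without the filter and with voom. Wnt3 (-1.65 ± 0.59, adjusted p = 0.0542), Wnt8a (-0.98 ± 0.42, adjusted p = 0.0960) and Eomes (-0.56 ± 0.27, adjusted p = 0.140) missed the threshold. Wnt3 was called in 4 of its 18 alternatives (limma, adjusted p from 0.0288 to 0.121 over all of them): without LV22 at P7, without LV4 at P13, without LV22 at P13, and, at -1.35 with an adjusted p of 0.0421, with both LV21 at P7 and LV22 at P13 left out. The median difference of the 5 members was -1.65, and that of all genes tested -0.004.

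Of 16 other streak and mesendoderm factors tested in this contrast, 4 fell and none rose: Cer1 (log2 difference -2.73 ± 0.69), Fgf8 (-2.63 ± 0.67), the caudal homeobox gene Cdx4 (-2.01 ± 0.44) and Cyp26a1 (-1.78 ± 0.52), which encodes an enzyme that breaks down retinoic acid. Their median difference was -0.23. Among 6 other Wnt ligands Wnt5a rose (1.54 ± 0.27) and none fell, and among 24 genes of Wnt secretion, reception and transduction 2 rose and 6 fell, with the frizzled receptor gene Fzd3 at -0.66 ± 0.13. Of 12 Wnt feedback targets 4 rose, Ccnd2 most (1.71 ± 0.22), and 3 fell, Rnf43 most (-1.70 ± 0.34), an E3 ligase that removes frizzled receptors. Of 19 Nodal and Activin pathway genes 3 rose and 6 fell, and of 19 BMP pathway genes 2 rose and 2 fell, the inhibitor Nog by -2.68 ± 0.51.

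Fibroblast and feeder markers moved the opposite way to T and Lhx1. All 14 tested rose in the averaged contrast, and their sum over 15 genes went from 318 to 454 CPM at P7 in female lines to 629 to 1292 CPM at P13, and from 323 to 336 CPM to 610 to 1695 CPM in male lines. None of the 15 stood at 0 in an iPSC library. Trophoblast markers fell in 2 of 8 (Krt8 and Krt18) and primitive endoderm markers rose in 5 of 12. Their part in the change of the streak genes was not tested.

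The sexes were compared within each passage. At P7, when the female lines are given as XX, limma called 0 of 5 members between female and male lines, against 4.78% of all genes (3.05% higher, 1.72% lower), with 0 members at an unadjusted p under 0.05 and 0 called by voom. The log2 differences (female minus male) were -0.33 ± 0.84 for Wnt3, -0.39 ± 0.59 for Wnt8a, -0.14 ± 1.13 for T, 0.63 ± 0.38 for Eomes and 0.30 ± 0.98 for Lhx1. Those of T, Lhx1, Wnt3 and Wnt8a depended on LV21, whose T of 6.36 lay above every male line while LV20 and LV22 (2.48 and 2.82) lay below all of them (3.45 to 5.14). With LV21 at P7 left out, alone or together with LV22 at P13, the difference of T was -1.37, that of Lhx1 -0.73, that of Wnt3 -1.44 and that of Wnt8a -0.92. The other libraries moved them too, with the ranges given in the closing section.

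At P13, when the female lines are given as XO, limma called 0 of 5 members, against 0.0286% of all genes, with 0 members at an unadjusted p under 0.05 and 0 called by voom. The estimates ran from -1.18 ± 1.13 for T to 0.41 ± 0.38 for Eomes. Without LV22 at P13 that of T was -2.20, that of Lhx1 -1.48 and that of Wnt3 -1.25, and without LV21 at P13 they were -0.12, -0.086 and -0.12. Over all libraries left out in turn, T ranged from -2.20 to -0.12, Lhx1 from -1.55 to -0.056 and Wnt3 from -1.25 to -0.12. With 3 lines a group and SEs near 1, differences as large as these were not detectable for T and Lhx1.

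In ESCs the XX lines CM1, CM2 and F121 were compared with the XY lines CM3, CM7 and V6.5 at 0 h, with the experiment (CM or withdrawal) as a covariate. The experiments differ in feeder use, passage and genetic background. F121 and V6.5 are a single line each, so line and sex cannot be told apart between them. All 6 fitted differences were below 0 (lower in XX lines), and limma called 0 of 6, against 7.19% of all genes (4.87% higher, 2.32% lower), with 1 member, Wnt3, at an unadjusted p under 0.05 and 0 called by voom. T was 3.47 in CM1 and 3.54 in CM2 against 4.05 in CM3 and 7.07 in CM7, and 0.54 in F121 against -0.18 in V6.5. F121 thus lay above V6.5 while both XX CM lines lay below both XY CM lines. The share of all genes with that order in the CM lines was not computed. Lhx1 was 0.73 and 0.13 in CM1 and CM2, 1.77 and 5.42 in CM3 and CM7, and near the floor in F121 and V6.5 (1 and 0 reads).

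The XX minus XY log2 difference was -1.13 ± 0.78 for T, -1.94 ± 1.03 for Lhx1, -1.47 ± 0.62 for Wnt3, -0.52 ± 0.68 for Wnt8a, -0.34 ± 0.32 for Eomes and -0.89 ± 0.73 for Mixl1. CM7 set several of these: without it the difference was 0.00 for T, 0.10 for Eomes, 0.02 for Mixl1 and 0.04 for Wnt8a, and it stayed below 0 for Lhx1 (-0.56) and Wnt3 (-0.84). Among CM lines alone, Wnt8a (1.11 and 2.05 in CM1 and CM2, 2.77 and 3.62 in CM3 and CM7) was called, at -1.62 (limma, adjusted p = 0.0495).

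Around the members, the Wnt target Axin2 (-1.31 ± 0.20) and the frizzled receptor genes Fzd5 (-0.68 ± 0.11) and Fzd7 (-0.61 ± 0.09) were lower in XX ESCs. Of 14 Wnt feedback targets tested 2 were lower and none higher, and of 24 transduction genes 3 were lower and none higher. The median difference of the 18 other streak factors tested was -0.57. The Nodal inhibitor Lefty2 was higher in XX ESCs (1.55 ± 0.16). Pluripotent cell markers were higher in 5 of 14 and formative and primed epiblast markers lower in 3 of 11.

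Early iPSCs were also set against the CM ESCs, 6 P7 iPSC and 4 CM libraries with sex as a covariate. Eomes was lower in iPSCs, the only member of 6 that limma called, against 37.2% of all genes (18.5% higher, 18.7% lower). It stood at 3.73, 2.46 and 3.28 log2 CPM in LV4, LV8 and LV16, at 3.77, 4.38 and 3.19 in LV20, LV21 and LV22, and at 4.53, 4.56, 4.59 and 5.80 in CM1, CM2, CM3 and CM7. Every iPSC library lay below every CM library, and the share of all genes that do so was not computed. The log2 difference was -1.40 ± 0.34 (limma, adjusted p = 0.00514), it was called under all 15 alternatives (adjusted p from 0.000460 to 0.0205), and it kept its sign without CM7 and LV21 at P7.

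The other members did not separate the cell kinds. T differed by -0.58 ± 0.75 (adjusted p = 0.571), and the estimate was 0.22 without CM7 and -1.23 without LV21 at P7, called in the latter case (adjusted p = 0.0472). Mixl1 differed by -1.36 ± 0.76 (adjusted p = 0.177), and Lhx1 by 0.00 ± 0.86, Wnt3 by 0.38 ± 0.66 and Wnt8a by -0.14 ± 0.44. Without LV21 at P7, Lhx1 stood at -0.62 and Wnt3 at -0.20. Of 19 Nodal and Activin pathway genes 9 were lower in iPSCs, among them Nodal (-0.44 ± 0.14) and Foxh1 (-0.66 ± 0.14), and 2 were higher. Passage, genetic background and cell kind differ together between these groups and cannot be told apart. Fibroblast and feeder markers, lower in 12 of 14 in iPSCs, differed too, and their part was not tested.

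Withdrawal of LIF addresses the first steps of differentiation. After 24 h T was lower in all 4 lines, and the ligands Wnt3 and Wnt8a were higher in all 4. Limma called these 3 of the 4 members tested, against 32.7% of all genes (16.8% higher and 15.9% lower). Lhx1 and Mixl1, below a mean of 1 CPM in these 8 libraries, were not tested. The steps within a clone rest on the clone numbers in the labels: deviations from the group means of same-numbered clones correlated at -0.365 between the times, and the clone with more Dusp9 differed between them. With the numbers crossed, T was still lower and Wnt3 and Wnt8a still higher at 24 h in both clones, Wnt8a going from 54 to 137 and from 126 to 167 reads.

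Wnt8a changed most. It went from 2 reads to 24 in V6.5, from 14 to 160 in F121, from 54 to 167 in clone 1 and from 126 to 137 in clone 2 labelled Dusp9+/-. On the log2 CPM scale this was -1.38 to 1.24, 0.30 to 3.78, 2.27 to 3.75 and 3.37 to 3.58. F121 and both clones thus reached nearly the same level at 24 h from different levels at 0 h. For V6.5 the ratio was 10.9, with a 95% counting interval of 2.71 to 95.2, and for clone 2 it was 1.16, with an interval of 0.906 to 1.49, within counting error. The fitted log2 difference was 1.95 ± 0.47 (limma, adjusted p = 0.0179), higher in 4 of 4 lines.

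Wnt3 went from -0.78 to -0.13 in V6.5, from -1.29 to 0.54 in F121, from 0.56 to 2.31 in clone 1 and from 1.86 to 2.44 in clone 2. The steps rest on few reads in the wild-type lines, 4 and 8 in V6.5 and 3 and 15 in F121, and the step in V6.5 was within counting error (a ratio of 1.82 with an interval of 0.487 to 8.25). The log2 difference was 1.20 ± 0.33 (limma, adjusted p = 0.0267), higher in 4 of 4 lines.

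T went the other way. It stood at -0.18 and -1.45 in V6.5, at 0.54 and -0.53 in F121, at 1.51 and 0.61 in clone 1 and at 2.60 and 0.47 in clone 2. V6.5 had 7 and 2 reads, a ratio of 3.85 with a counting interval of 0.73 to 38.0, and F121 had 17 and 6 reads, a ratio of 2.51 with an interval of 0.944 to 7.78, so that in each wild-type line taken alone the fall was within counting error. The log2 difference was -1.34 ± 0.27 (limma, adjusted p = 0.00891), lower in 4 of 4 lines. T held 0.702 to 5.87 CPM at 0 h and 0.182 to 1.35 CPM at 24 h. It thus reached the mean of 1 CPM needed for testing through its levels at 0 h.

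Eomes gave no common direction. It went from 4.21 to 4.52 log2 CPM in F121, from 4.72 to 4.80 in clone 1 (a ratio of 1.06 with an interval of 0.905 to 1.24, within counting error) and from 3.99 to 5.06 in clone 2, and it went from 3.92 to 2.71 in V6.5 (149 and 70 reads). Its mean difference was 0.06 ± 0.31 (limma, adjusted p = 0.893). Lhx1 had at most 10 reads in these libraries and Mixl1 at most 15, and no fold is given for them.

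**Figure D4:**
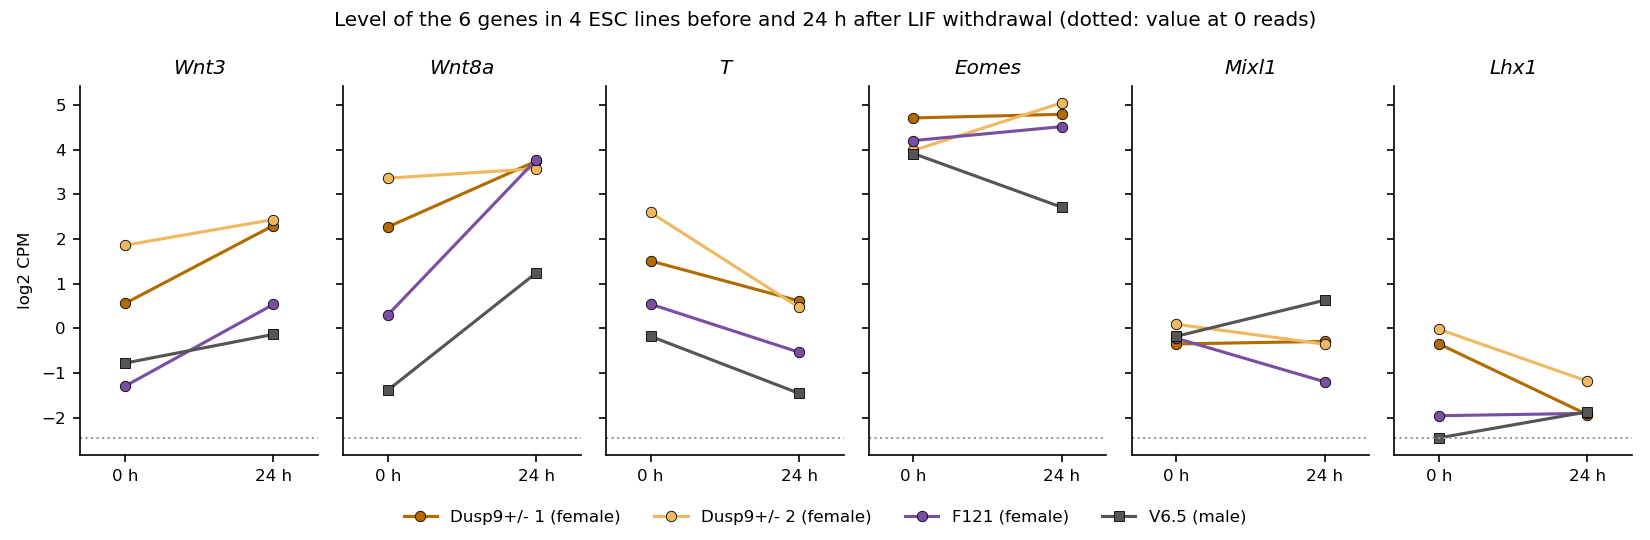
Level (y axis, log2 CPM) of each gene at 0 h and after 24 h without LIF (x axis) in 4 ESC lines, joined within a line, with a dotted line at the value of 0 reads. Wnt3 and Wnt8a slope up and T slopes down in all 4 lines, and Eomes falls in V6.5 only.

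With only 4 lines, leaving out a line at both times could end these calls. T was no longer called without clone 2 (limma, adjusted p = 0.0592). Wnt3 was not called without clone 1, clone 2 or F121 (0.0841, 0.0578 and 0.0934), nor without clone 1 at 0 h or either clone at 24 h (0.0517 to 0.0720), and Wnt8a not without clone 1, F121 or V6.5 (0.0557, 0.0558 and 0.0599). The directions held in each case. With the line as a replicate block all 3 remained called.

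Cells changed in many other ways in the same 24 h. Pluripotent cell markers fell in 10 of 14, led by Tbx3 (-3.08), Klf4 (-2.69) and Tfcp2l1 (-2.34), and formative and primed epiblast markers rose in 8 of 11, led by Fgf5 (2.75), Sall2 (2.49) and Pou3f1 (2.35). Of 12 other streak and mesendoderm factors tested, Cdx4 (1.66 ± 0.23) and Otx2 (1.49 ± 0.41) rose and Cdx1 (-1.68 ± 0.44) fell. The transcription factor gene Lef1, which acts downstream of Wnt ligands, rose by 1.91 ± 0.23 and the receptor gene Fzd5 fell (-1.05 ± 0.11). In the Nodal pathway 3 of 19 rose, among them Foxh1 (0.85 ± 0.08) and Nodal (0.42 ± 0.13), and 4 fell, Lefty2 most (-1.75 ± 0.20).

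Fibroblast and feeder markers were present although the labels give culture without feeders. Their sum went from 1008 to 250 CPM in V6.5 and from 953 to 290 CPM in F121, and was 113 and 238 CPM at 0 h and 202 and 114 CPM at 24 h in clones 1 and 2. They fell in 8 of 13, and at most 1 of the 15 stood at 0 in a library. Their part in the changes of T and the Wnt ligands was not tested.

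The clones labelled Dusp9+/- were compared with F121, the wild-type XX line of the same cross. Dusp9 itself was 5.96 and 7.43 log2 CPM in clones 1 and 2 at 0 h against 6.93 in F121, and 7.71 and 6.58 against 7.84 at 24 h. The gene was therefore not lower in every clone library, and the clone with the higher level differed between the times. At 0 h Wnt3 and Wnt8a were higher in the clones, and limma called these 2 of 4 members tested, against 8.91% of all genes (4.81% higher, 4.1% lower).

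Wnt3 had 15 and 43 reads in the clones and 3 in F121, a ratio of 10.7 with a 95% counting interval of 3.49 to 53.5, and a log2 difference of 2.51 ± 0.55 (limma, adjusted p = 0.0481). Wnt8a had 54 and 126 reads against 14, a log2 difference of 2.52 ± 0.46 (limma, adjusted p = 0.0339). T, at 1.51 and 2.60 log2 CPM against 0.54, differed by 1.51 ± 0.50 and missed the threshold (adjusted p = 0.107), and Eomes differed by 0.14 ± 0.31. Both clones lay above F121 for Wnt3, Wnt8a and T, as did 39.7% of all genes. F121 is 1 library, assumed to vary like the clones. Over the 8 libraries Wnt3 held 1.29 to 5.24 CPM in the clones and 0.225 to 1.27 CPM in F121 and V6.5. It thus reached the mean of 1 CPM needed for testing through the clones, the group in which it was called higher. The same holds for T, at 1.20 to 5.87 CPM in the clones and 0.182 to 1.28 CPM in F121 and V6.5. Without a filter on low values and with voom neither Wnt gene was called, nor was Wnt3 with a pseudocount of 1 CPM.

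After 24 h the gap in Wnt8a was gone. Limma called 0 of 4 members, against 2.55% of all genes (1.57% higher, 0.984% lower), with 1 member, Wnt3, at an unadjusted p under 0.05 and 0 called by voom. Wnt3 still differed by 1.83 ± 0.55 (adjusted p = 0.120), with 60 and 61 reads in the clones against 15, and Wnt8a by -0.12 ± 0.46 (137 and 167 reads against 160). The difference in response was tested as an interaction. Limma called 0 members and 0 genes (0%), with 1766 genes and 1 member, Wnt8a, at an unadjusted p under 0.05 and 0 members called by voom. The interaction of Wnt8a was -2.63 ± 0.65 (limma, adjusted p = 0.253). It was called with the line as a replicate block and the clone numbers crossed (limma, adjusted p = 0.00729), and not with the numbers as labelled in the block (0.618). Over its 10 alternatives the adjusted p ranged from 0.00729 to 0.618.

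Other marker genes set the clones apart from F121 at 0 h. Trophoblast markers were higher in 4 of 8, Hand1 most (3.58 ± 0.35), with sums of 305 and 519 CPM against 101, and the formative and primed epiblast markers were higher in 6 of 11 and lower in 1. Fibroblast and feeder markers were lower in 7 of 13, and pluripotent cell markers in 4 of 14. Rnf43 was higher by 2.87 ± 0.38, the only Wnt feedback target of 11 called. Whether these markers bear on Wnt3 and Wnt8a was not tested.

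**Figure D5:**
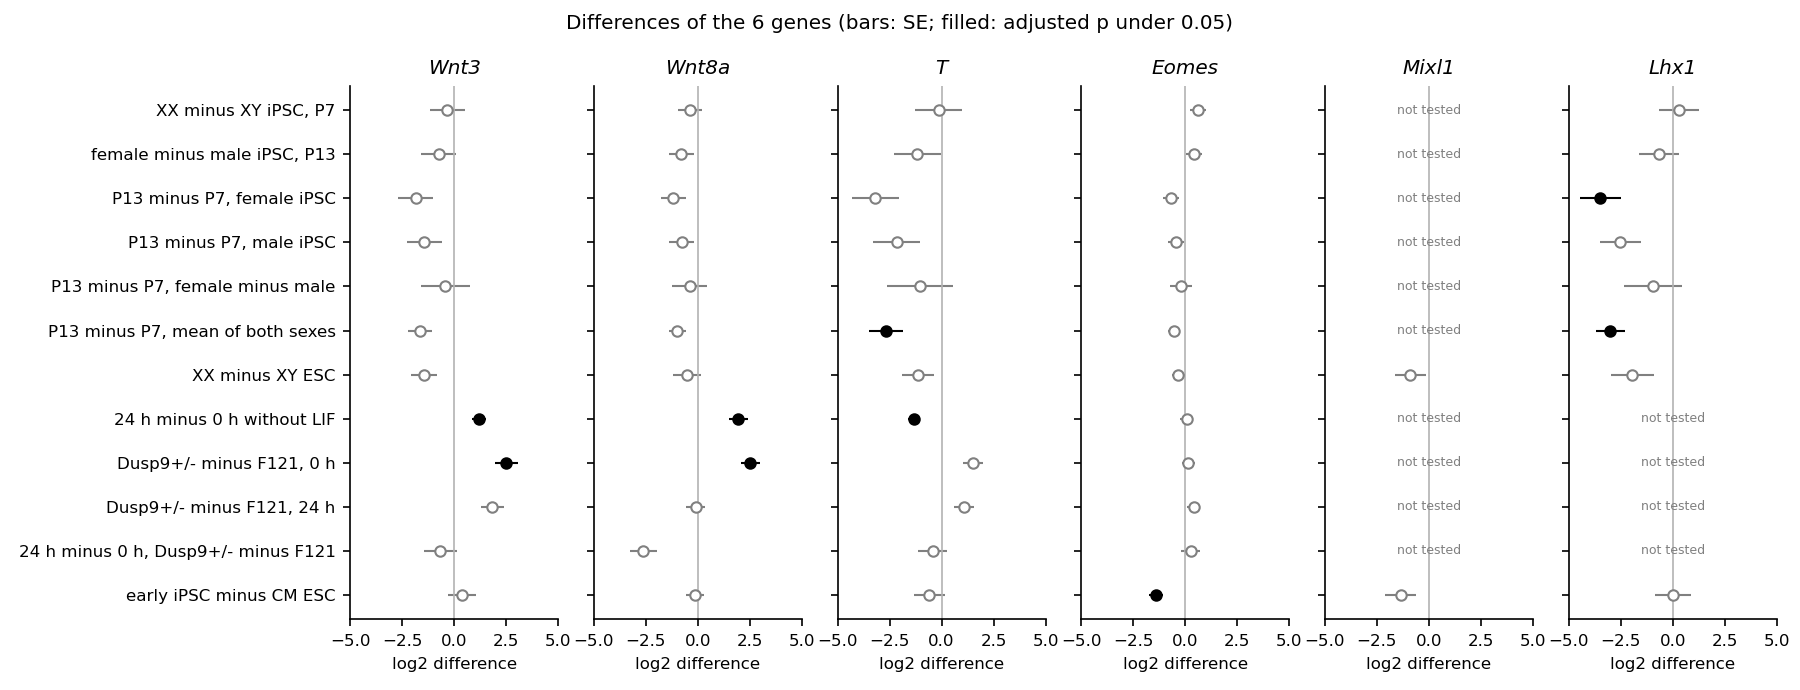
Log2 difference (x axis) with its SE for each gene in each comparison (y axis), with filled points for an adjusted p under 0.05 (limma) and open points otherwise. The filled points are T, Wnt3 and Wnt8a after LIF withdrawal, Wnt3 and Wnt8a in the clones at 0 h, Lhx1 and T with passage, and Eomes between iPSCs and CM ESCs.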

How the data were processed

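RNA from mouse iPSCs and ESCs was sequenced single-end at 36 or 51 bases, per the labels' protocols. The authors deposited log2 CPM values with decimal commas, a unit other than counts (24 columns). STAR 2.5.3a, featureCounts and edgeR with GRCm38 and mm10 are named per the submitters' processing notes. Whole reads were recovered from the steps between values, 100.0% within 0.01 read, and the offset averaged 2.0 reads. A gene was tested where its mean in the fitted libraries reached 1 CPM, with limma 3.58.1 in R 4.3.3 (trended variance, two-sided, Benjamini-Hochberg over all genes tested, threshold 0.05). Groups came from the labels. With 1 culture per line and time, p-values measure the spread between lines. In the comparisons of the clones with F121, interaction included, F121 and V6.5 have 1 library at each time. There the spread comes only from the 2 clones, and those p-values do not measure the spread between lines such as F121. Named genes are the 6 members, up to 3 called genes of each list with the largest difference, and the 3 genes most like each member, plus some others named after their values were seen. The members and the 12 lists were chosen with earlier results of these data known. On the lists, 18 entries had no row under the name given, among them Sox17 on 2 lists and Oct6, a synonym of Pou3f1, which is also listed and was tested. Lines sampled at both passages or times pair the samples by design, and the same-line correlation of deviations from group means was -0.039 to 0.110 over iPSC lines and -0.365 for the clones. Alternatives were another pseudocount, no filter, median-centred libraries, voom, leaving out libraries or lines, and the line as a block. The fits were tested on simulated data.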

Additional observations from a re-analysis of the deposited data

Results flagged for a closer look

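Eomes differed in direction between lines after LIF withdrawal. It was higher after 24 h in the 3 XX lines (F121 and both clones labelled Dusp9+/-) and lower in the XY line V6.5, so that the mean change of the XX lines was 1.69 log2 units above that of V6.5. In clone 1 the step was within counting error, from 303 to 348 reads, a ratio of 1.06 with a 95% interval of 0.905 to 1.24. The difference was not tested, since the XY side has 1 line, and sex cannot be told apart there from other traits of that line.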

How the results depend on the processing

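Of the recomputed differences of the 6 genes, 322 on leaving out a library or line and 285 under other settings kept their direction and their side of the threshold, 18 and 10 lost a call, 5 and 3 gained one, and 43 and 7 changed sign. Few reads limit Lhx1 and Mixl1, and the cause of the changes below was not tested.

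Without a filter on low values (more genes tested), genes called numbered 440 for XX against XY iPSCs at P7, 200 for the clones against F121 at 0 h and 0 at 24 h, and members called 0 for passage in female lines, 1 for passage averaged over the sexes and 0 for the clones at 0 h. With voom, members called were 0, 1 and 0 in these last comparisons, and 16 genes were called for the clones at 24 h. With a pseudocount of 1 CPM, members called were 0 for passage in female lines and 1 for the clones at 0 h, and Wnt3 turned to 0.018 in the interaction of clone and time. Lhx1 turned from 0.00 to -0.10 (pseudocount), -0.010 (median-centred) and -0.65 (voom) between iPSCs and CM ESCs. With CM lines alone, XX against XY ESCs gave 1555 genes and 1 member.

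Leaving out LV21 at P7 together with LV22 at P13 gave 1818 genes and -0.73 for Lhx1 between the sexes at P7. For the difference between the sexes in passage change it gave 361 genes, 0.15 for Eomes and 0.18 for Wnt3.

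With the line as a replicate block, 11 genes were called for the difference between the sexes in passage change, and no call of a count of members changed. Crossing the 2 clones in that block, added after seeing the data, gave 754 genes and 1 member (Wnt8a) for the interaction of clone and time, and 4493 genes and 3 members for 24 h against 0 h.

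Leaving out libraries or lines in turn, genes called ranged from 45 to 1727 (sexes at P7), 174 to 2077 (passage, female), 436 to 2203 (passage, male), 0 to 146 (difference in passage change), 207 to 684 (XX against XY ESCs), 1630 to 4174 (withdrawal), 1787 to 2155 and 1 to 154 (clones at 0 h and 24 h) and 0 to 82 (clone and time). Members called ranged from 0 to 1 (passage, female), 1 to 3 (passage, averaged), 1 to 3 (withdrawal) and 1 to 2 (iPSCs against CM ESCs).

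Differences that changed sign ranged, for the sexes at P7, from -1.37 to 0.57 for T, -0.73 to 0.92 for Lhx1, -1.44 to 0.34 for Wnt3 and -0.92 to 0.066 for Wnt8a. For the difference in passage change they ranged from -2.07 to 0.19 for T, -0.51 to 0.13 for Eomes, -1.85 to 0.072 for Lhx1, -1.09 to 0.69 for Wnt3 and -0.88 to 0.13 for Wnt8a. For XX against XY ESCs they ranged from -1.73 to 0.0014 for T, -0.59 to 0.10 for Eomes, -1.57 to 0.021 for Mixl1 and -0.47 to 0.069 for Wnt8a. Eomes ranged from -0.27 to 0.49 (withdrawal), -0.22 to 0.51 (clones at 0 h) and -0.10 to 0.63 (clone and time), and T from -0.98 to 0.11 in the latter. Between iPSCs and CM ESCs, T ranged from -1.23 to 0.22, Lhx1 from -0.62 to 1.10, Wnt3 from -0.20 to 0.90 and Wnt8a from -0.47 to 0.16.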
